A study of Mus musculus with 9 samples.

Results

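The gene expression table lists 122 microRNA loci among its 15074 genes, and these 122 are described here. They were chosen by symbol, as entries starting with Mir and a digit or with Mirlet7, without the host gene entries that end in hg and without Mir675, whose host is H19. They make up 122 of the 1228 microRNA genes that RefSeq annotates on the mouse genome. The RNA came from mouse embryonic stem cells (ESCs) of 3 lines. WT is the J1 line. 1KO is the Dnmt1-/- line derived from J1, which lacks DNMT1, the methyltransferase that copies DNA methylation onto newly replicated strands. 1KO+1CI is 1KO carrying a transgene for catalytically inactive DNMT1 (DNMT1C1229S), driven by the CAG promoter with a zeocin resistance cassette, and the number that the table gives this line is presumably that of 1 clone. All lines were sampled as undifferentiated ESCs on day 0, when they grew on mitomycin C-treated feeder fibroblasts in serum and LIF, and on days 2 and 4 of differentiation towards epiblast-like cells after the feeders had been removed and LIF withdrawn. Each of the 9 conditions has 1 library, so no value has a replicate error.

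A microRNA is cut from a hairpin in a longer primary transcript. DROSHA and DGCR8 excise the hairpin in the nucleus, DICER1 trims it to a short duplex, and 1 arm is loaded into an Argonaute protein, where its seed at bases 2 to 8 pairs with target mRNAs. Hairpins lie in introns or exons of host genes or in transcripts of their own, often several in a row, and a short mirtron is itself an intron that splicing releases without DROSHA. In mouse ESCs the Mir290 to Mir295 cluster is the most prominent source of microRNAs, and its main seed resembles those of the Mir302 and Mir17 families. The libraries here were made from RNA enriched with oligo(dT) and are not small RNA libraries. A mature microRNA carries no poly(A) tail, so a value for one of these loci counts fragments of a host mRNA or primary transcript that happen to cover the hairpin, and says nothing of the amount of mature microRNA.

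The sequences below belong to the clusters and loci on which the results turn. Capitals mark the seed (bases 2 to 8), and sequences and positions are those of RefSeq on GRCm38.p6. In all, 111 of the 122 loci have a mature sequence there, giving 164 arms with 152 different seeds, and 9 seeds occur in more than 1 locus. The Mir290 cluster on the plus strand of chromosome 7 carries 2 of these shared seeds in the arms shown, AAGUGCU in Mir291a, Mir294 and Mir295 and CUCAAAC in Mir290a, Mir292 and Mir293:
mmu-miR-290a-5p (chr7:3218639-3218660): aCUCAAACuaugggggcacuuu
mmu-miR-290a-3p (chr7:3218674-3218697): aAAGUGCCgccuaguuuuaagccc
mmu-miR-291a-3p (chr7:3218968-3218989): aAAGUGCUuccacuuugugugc
mmu-miR-292a-5p (chr7:3219200-3219221): aCUCAAACugggggcucuuuug
mmu-miR-291b-3p (chr7:3219529-3219550): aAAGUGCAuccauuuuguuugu
mmu-miR-293-5p (chr7:3220356-3220377): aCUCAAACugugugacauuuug
mmu-miR-294-3p (chr7:3220691-3220712): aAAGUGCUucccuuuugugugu
mmu-miR-295-3p (chr7:3220815-3220837): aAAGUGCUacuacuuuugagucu
A different seed, AUUGCAC, is shared by Mir363 and Mir92-2, neighbours on the minus strand of chromosome X, and by Mir92-1 on the plus strand of chromosome 14. Mir92-2 and Mir92-1 give the same mature sequence from hairpins on 2 chromosomes:
mmu-miR-363-3p (chrX:52741697-52741718): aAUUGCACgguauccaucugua
mmu-miR-92a-3p (chrX:52741854-52741874 for Mir92-2, chr14:115044476-115044496 for Mir92-1): uAUUGCACuugucccggccug
The last set belongs to loci outside these clusters that the fit below called between days or lines, apart from Mir410, which was not called. All lie on the plus strand except miR-7654-3p, and no seed is shared among them:
mmu-miR-7003-5p (chr2:163068095-163068115): uGUGGGGAgaagcugcggcag
mmu-miR-7003-3p (chr2:163068137-163068155): cCCCGGGUuuuccccacag
mmu-miR-6385 (chr9:58221155-58221175): gCAAGGAUgacagagaggaag
mmu-miR-3076-3p (chr14:30572185-30572207): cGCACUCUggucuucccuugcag
mmu-miR-5114 (chr19:44303171-44303192): aCUGGAGAcggaagcugcaaga
mmu-miR-707 (chr7:44849705-44849725): cAGUCAUGccgcuugccuacg
mmu-miR-7654-3p (chr8:8690093-8690114): cGAGCGGGagcgcgccucgucc
mmu-miR-410-3p (chr12:109743764-109743784): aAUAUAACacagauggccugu

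Most listed loci overlapped an exon. Of the 122, 83 (68.0%) overlapped an exon of another gene on the same strand in GENCODE release M21, against 270 (22%) of all 1228 annotated microRNA genes. A further 15 (12.3%) overlapped an exon on the other strand. Only 15 (12.3%) lay in an intron on the same strand, where 578 (47.1%) of all microRNA genes lie, and 5 (4.1%) were intergenic against 252 (20.5%). Any overlap counts here, also with an exon of an isoform where another isoform has an intron, as at Mir1982 in Oaz1. Of the 83 hairpins on the same strand, 63 had at least 90% of their bases in exon, and others, such as Mir3076 with 1.7%, only touched one. The exon part was coding for 30 loci, 3′ UTR for 18, 5′ UTR for 16 and a noncoding transcript for 19, which includes noncoding isoforms of protein-coding genes. By number, 88 (72.1%) had names from 1000 upwards, which were assigned late, against 654 (53.3%) of all microRNA genes. The 100 host genes that the table also lists had a median mean level of 21.6 FPKM, against 6.53 FPKM over all genes, so the listed hairpins sit in the more abundant transcripts. Every listed locus had reads in all 9 libraries, so these shares and levels describe loci that were read, and not microRNA genes at large. FPKM is the number of fragments per 1000 bases of the feature, scaled to the size of the library.

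Well-known ESC microRNAs were unevenly represented. The Mir290 cluster had 8 of its 9 named loci in the table. The Mir17 cluster had 1 of 6 (Mir92-1, in an exon of Mir17hg) and the Mir106a cluster on chromosome X had 2 of 6 (Mir363 and Mir92-2). The Mir302, Mir106b and Mir200 families and let-7 had no locus among the 122. From the imprinted Dlk1-Dio3 region of chromosome 12 there were Mir1906-1, in an exon of Meg3, and Mir410 and Mir3072, in exons of Mirg, both host transcripts being noncoding RNAs made from the maternal chromosome. Hairpins also met splice sites: 20 had an end exactly on the end of an annotated intron, and 4 of these filled an intron from end to end, namely Mir1982 in Oaz1, Mir7068 in Cherp, Mir7070 in Fbxw9 and Mir877 in Abcf1.

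The loci were short and thinly covered. The hairpins measured 43 to 137 bases, with a median of 80. The library depths recovered from the values were 20233293 to 28114329 reads, at which 1 read in a hairpin of median length is worth between 0.45 and 0.626 FPKM. With these depths 1091 of the 1098 member values (99.36%) came out as whole reads within 0.1 read. The mean over libraries ran from 2.11 to 498 reads per locus with a median of 9.78, and 23 loci stayed under 10 reads in all 9 libraries while 27 had at least 10 in all. No listed value was 0, and 22 loci had 1 read in some library. Whether a step in the table is a read or a fragment counted as 2 reads is not known, and counting intervals below, which assume reads and cover counting error only, would then be too narrow.

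The 10 loci with the highest mean FPKM all overlapped exons, with 76.9% to 100.0% of their bases except for Mir6904 with 10.4%. Mir686 in a coding exon of Psmb5, a catalytic subunit of the proteasome, was highest with 175, 212 and 274 FPKM in WT on days 0, 2 and 4, 221, 181 and 242 in 1KO, and 154, 168 and 202 in 1KO+1CI. Mir5121, in Rpl13a of the large ribosomal subunit, read 199, 114 and 229 FPKM in WT, 187, 113 and 205 in 1KO, and 142, 124 and 157 in 1KO+1CI. All 3 lines were thus lowest on day 2 at Mir5121, while at Mir686 they were all highest on day 4. Mir5114, in the 3′ UTR of the fatty acid desaturase gene Scd2, followed with a mean of 148 FPKM. Mir8094 in Ddx39b, an mRNA export helicase, had 129 FPKM, Mir8114 in Glul, the glutamine synthetase, 92.9, and Mir1906-1 in Meg3 62.7. Mir1906-2 on chromosome X (61.6 FPKM) is a near copy of Mir1906-1, and the values of the pair cannot be attributed to either locus, since the handling of reads with several alignments is not given. Mir3063 in Igf2bp1 (55.9), Mir6904 in Parp1 (36.1) and Mir719 in Nupl1 (34.0) completed the 10.

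The level of a locus relative to its host differed with its place in the host. For the 75 same-strand exonic loci with a listed host, the hairpin reached a median of 0.414 of the host's FPKM, while for the 15 intronic loci it reached 0.0614. The hosts of the intronic loci also had the higher median level. Hairpins without reads could not enter either median. Fully exonic Mir3064, in the abundant host Ddx5, lay below the intronic median, and intronic Mir6991, in a weak host, above the exonic one. How much of the contrast goes with host level was not tested. Among hairpins covered to at least 90% by exon, the median ratio was 0.62 in coding exons (14 loci), 0.682 in 3′ UTRs (18), 0.481 in 5′ UTRs (15) and 0.139 in noncoding transcripts (11). The last group mixes 2 kinds of host. Loci in noncoding isoforms of Oaz1, Huwe1, Actg1, Srrt, Cherp and Rpl13, which code for proteins, had ratios from 0.00646 to 0.139. Loci in noncoding RNA genes had ratios from 0.143 (Mir92-1) to 2.28 (Mir1896). Across the 9 libraries, which differ in line and day, the locus and host FPKM had a median Pearson r of 0.51 for exonic loci, with 25 of 75 at 0.7 or more. For intronic loci the median r was 0.02, with 3 of 15 at 0.7 or more. Depth moved with this measure: exonic loci with a mean of at least 50 reads had a median r of 0.80, those with at least 10 reads 0.68, and those under 10 reads 0.34. The 8 loci on the strand opposite a host exon had a median r of 0.72 and a median ratio of 0.996, and without a known strand setting their reads cannot be told apart from those of the gene across from them.

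**Figure D1:**
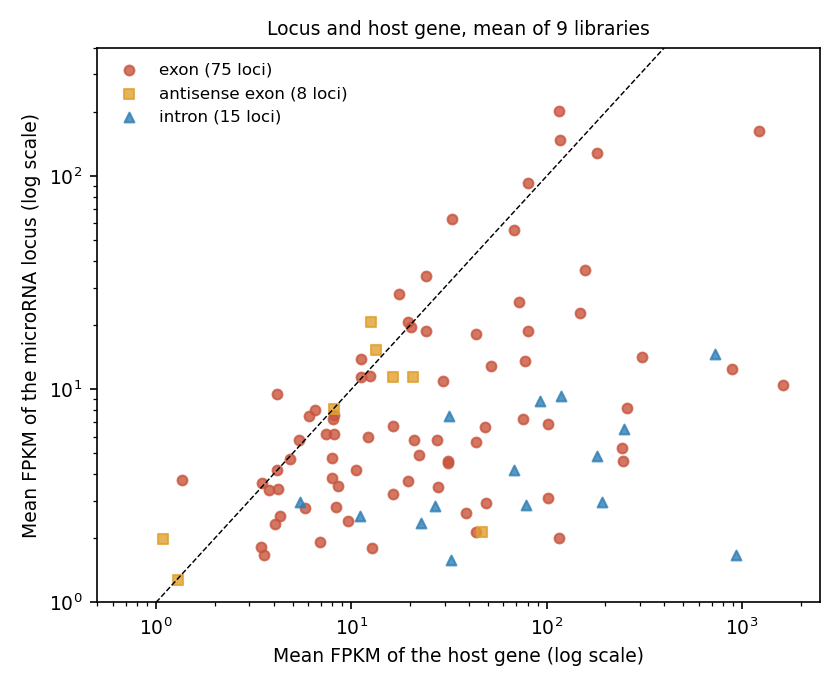
Mean FPKM of each microRNA locus (vertical axis, log scale) against the mean FPKM of its host gene (horizontal axis, log scale), with 1 point per locus averaged over the 9 libraries and shape and colour for the position of the hairpin. By median, exonic loci lie nearer to the line of equal level, with a ratio of 0.414, and intronic loci lie far below it, with 0.0614. The intronic loci also have the hosts of higher median level.

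Taken as single reads, the counts of most loci spread over the 9 libraries by more than counting noise. The variance of a locus's reads around its depth-scaled mean, divided by that mean, equals 1 on average when counting is the only source of spread. Its median over the 122 loci was 1.94, and 44 loci stayed under 1.5. By class the median was 2.07 for exonic loci, 2.33 for loci opposite an exon, 1.28 for intronic and 1.20 for intergenic loci. Only 17 loci exceeded 5, and 15 of these overlapped an exon of either strand. The 2 exceptions were Mir363, an intergenic locus at 8.92, and Mir7003 in a Mybl2 intron. The largest values were 44.9 for Mir5114, 20.5 for Mir6381, 18.5 for Mir5121 and 17.2 for Mir686.

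**Figure D2:**
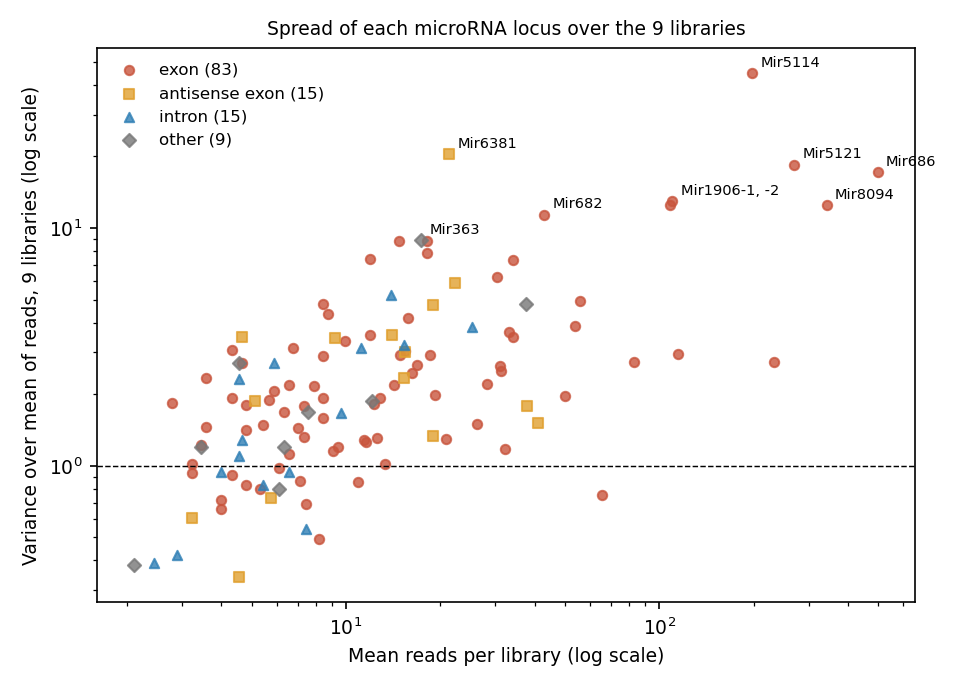
Variance over mean of the reads of each locus across the 9 libraries (vertical axis, log scale) against its mean reads per library (horizontal axis, log scale), with 1 point per locus and shape and colour for the position of the hairpin, and a dashed line at 1, the level of counting noise. Over the 122 loci the median is 1.94, 17 loci exceed 5, and Mir5114 is farthest above it at 44.9.

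The mutated gene was examined first. Dnmt1 read 74.0, 80.4 and 48.5 FPKM in WT on days 0, 2 and 4, and 13.7, 17.4 and 12.3 in 1KO. In 1KO+1CI it read 315, 129 and 158 FPKM. All 1KO libraries lay below all WT libraries, and all 1KO+1CI libraries lay above all WT libraries. ESC markers (7 genes, summed FPKM) ran from 1740 to 1980 on day 0 and from 1210 to 1550 on day 4, and epiblast markers (4 genes) from 115 to 138 on day 0 and from 376 to 560 on day 4. The ESC sum holds genes that moved apart. In WT from day 0 to day 4, Pou5f1 rose from 632 to 1010 FPKM and Tdgf1 from 347 to 364. Zfp42 fell from 266 to 31.6, Esrrb from 96.5 to 3.81 and Klf4 from 30.3 to 0.749, and Nanog and Sox2 fell too. Feeder fibroblast markers (6 of 6 listed, none at 0) summed on day 0 to 127 in WT, with 252 for 1KO and 279 for 1KO+1CI, to between 36.3 and 59.9 on day 2, and to between 34.6 and 170 on day 4. The 170 is that of 1KO+1CI, where Acta2 alone read 147 FPKM, against 90.5 on day 0, while Col1a1 read 9.86 against 74.4 and Col3a1 1.29 against 38.0. Primitive streak markers on day 4 summed to 14.5 in WT, against 74.1 for 1KO and 87.1 for 1KO+1CI. Their part in the differences below was not tested, and in bulk RNA fewer cells of a type and less RNA per cell cannot be told apart.

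The first question was whether losing DNMT1 changed these loci. No locus differed between 1KO and WT by at least 2-fold in the same direction on all 3 days (log2(FPKM + 1) difference of at least 1). None of the 122 had 0 reads in a library, so a locus without reads in a whole line could not be seen in this or the later comparisons. Over all genes 0.265% were steadily higher and 0.0265% steadily lower by that rule. The 3 days were then combined in an additive fit of line and day with limma over all genes, whose error is the part of the line difference that varied between days. In that fit 1 locus was higher and 1 lower in 1KO, which is 2 of 122 against 1.86% of all genes, at a Benjamini-Hochberg adjusted p under 0.05. The median difference of the loci was −0.02 on the log2 scale and that of all genes 0.0.

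Mir707 was the locus that rose in 1KO. It lies in the 5′ UTR of Akt1s1, which encodes the mTORC1 inhibitor PRAS40, and read 0.67, 1.71 and 0.658 FPKM in WT on days 0, 2 and 4, from 1, 3 and 1 reads. In 1KO it read 2.96, 3.3 and 4.9 FPKM, from 6, 5 and 8 reads, so that every 1KO library lay above every WT library. The difference was 1.25 ± 0.22 (SE) on the log2 scale (limma adjusted p = 0.038). This rests on few reads, the call was lost when any 1 of the 9 libraries was left out (limma adjusted p 0.06 to 0.16), and the counting interval of each day's ratio included 1.

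Mir7654, in a coding exon of Arglu1, which encodes a splicing regulator, was the locus that fell. It read 18.2, 27.3 and 16.5 FPKM in WT and 11.9, 17.2 and 12.1 in 1KO. Each day the 1KO value was the lower one, although the 1KO value on day 2 exceeded the WT value on day 4. The difference was −0.54 ± 0.10 (limma adjusted p = 0.046). The call was kept without 1 library in 1 of 9 cases (limma adjusted p 0.045 to 0.25), and in 1KO+1CI the values were 18.7, 23.1 and 17.9 FPKM, near those of WT.

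On single days, large differences between the lines were common and seldom repeated. Between 1KO and WT, 21 loci (17.2%) differed at least 2-fold on day 0, 19 (15.6%) on day 2 and 22 (18%) on day 4, while 3.79%, 2.26% and 2.26% of all genes did. For 13, 14 and 13 of these the counting interval of the ratio left out 1. These counts take no account of depth. Over the 6 comparisons of 1KO against WT or of 1KO+1CI against 1KO on single days, loci with a mean of 50 or more reads over the 9 libraries differed at least 2-fold in 4 of 78 cases (5.13%). Over all loci with at least 10 reads it was 57 of 360 (15.8%), and under 10 reads 62 of 372 (16.7%), nearly the same share. In 1KO against WT the share was larger at 10 reads or more than under 10 on each day (18.3% against 16.1%, 16.7% against 14.5%, and 21.7% against 14.5%). The log2(FPKM + 1) scale shrinks differences of low loci, which holds down the shares under 10 reads. These shares therefore cannot show how the differences depend on depth.

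The largest of these single-day differences was at Mir6516, in the noncoding RNA Snhg20. It read 7.08, 16.9 and 11.7 FPKM in WT, from 16, 45 and 27 reads. In 1KO it read 2.94, 8.28 and 0.404 FPKM, from 9, 19 and 1 reads, and 1KO+1CI had 5.36, 10.3 and 4.08. The 1KO value was below WT on all 3 days, and on day 4 the ratio was 0.0344 (95% counting interval 0.000841 to 0.209). Over the 3 days the difference was −1.72 ± 0.39 (limma adjusted p = 0.075), which did not pass.

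Mir1668 and Mir6381 also differed most on 1 day. Mir1668 has 29.0% of its bases in an exon of the adhesion receptor gene Adgre5, and it also overlaps the span of Ddx39 on the other strand. It had 36 reads in WT and 4 in 1KO on day 2, a ratio of 0.129 (0.0333 to 0.359). Mir6381 lies opposite the interferon-induced GTPase gene Gbp2, with 27.6% of its bases across from a coding exon. It read 21.9, 0.952 and 4.41 FPKM in WT and 3.72, 2.76 and 18.4 in 1KO. It was thus lower in 1KO on day 0, at a ratio of 0.17 (0.0725 to 0.357), and higher on day 4, at 4.18 (1.91 to 10.4). Gbp2 itself read 32.0, 2.33 and 9.16 FPKM in WT and 8.96, 5.91 and 29.3 in 1KO, and its Pearson r with Mir6381 over the 9 libraries was 0.96.

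The second question was what catalytically inactive DNMT1 changed in the 1KO line. No locus differed steadily by 2-fold between 1KO+1CI and 1KO in either direction. Of all genes 0.00663% were steadily higher, which is 1 gene, and 0.0% lower. The limma fit called 0 loci, with 20 at an unadjusted p under 0.05, and it called 0.00663% of all genes, which is Dnmt1 alone. On single days 17 loci (13.9%) differed at least 2-fold on day 0, 19 (15.6%) on day 2 and 21 (17.2%) on day 4, against 0.418%, 0.338% and 0.915% of all genes. The counting interval left out 1 for 10, 5 and 12 of them. The largest was at Mir7036 in Srrt, with 1 read in 1KO+1CI and 16 in 1KO on day 0, a ratio of 0.0732 (0.00175 to 0.472).

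**Figure D3:**
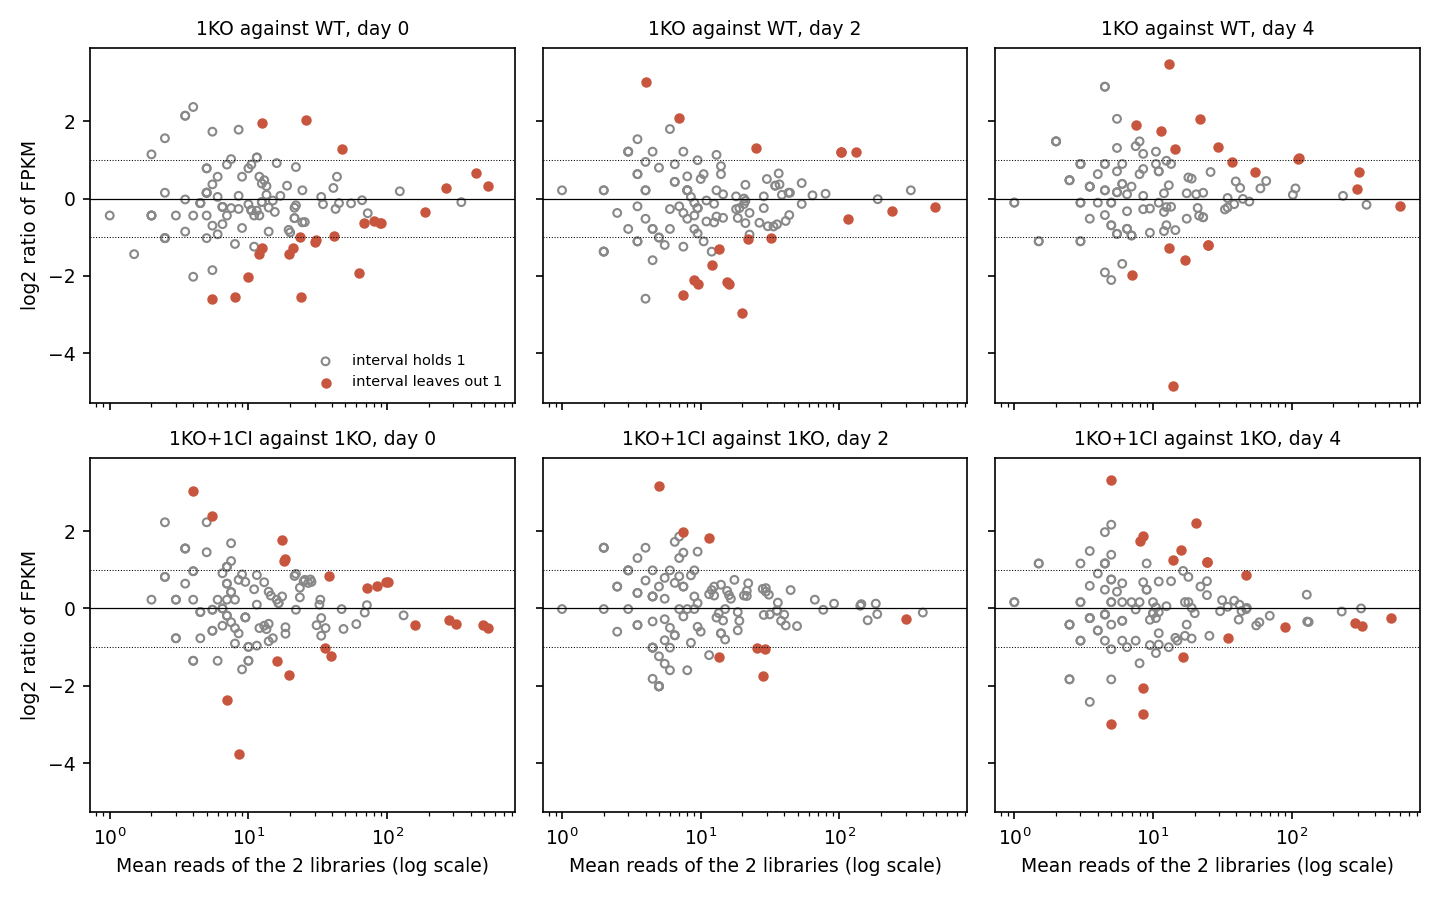
log2 ratio of FPKM between 2 libraries (vertical axis) against the mean reads of the 2 libraries (horizontal axis, log scale) for the 122 loci, in 6 panels for 1KO against WT (top row) and, below, 1KO+1CI against 1KO, on days 0, 2 and 4, with dotted lines at a 2-fold ratio and filled points where the 95% counting interval of the ratio leaves out 1. The points fan out at low reads in every panel. On the log2(FPKM + 1) scale, 4 of 78 comparisons of loci with a mean of 50 or more reads over the 9 libraries differ by at least 2-fold.

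Against WT, no locus differed steadily by 2-fold in 1KO+1CI (0.385% of all genes higher, 0.0531% lower), and the limma fit called 1 locus higher and 3 lower, 4 of 122 against 3.93% of all genes. The 1 call that stood whichever library was left out was Mir3076. Its hairpin lies in Tkt, the transketolase gene of the pentose phosphate pathway, with 1.7% of its bases in a coding exon and the rest in an intron. It read 32.7, 16 and 34.6 FPKM in WT on days 0, 2 and 4, 30.1, 15.3 and 34.4 in 1KO, and 14.8, 6.37 and 20.1 in 1KO+1CI. WT and 1KO lay almost on top of each other, while the 1KO+1CI value was the lowest of the 3 on every day. The difference from WT was −1.01 ± 0.11 (limma adjusted p = 0.0064, and at most 0.049 with any 1 library left out). The difference from 1KO was −0.95 ± 0.11, and with so few calls in that comparison its limma adjusted p was 0.2. Tkt read 169, 105 and 177 FPKM in WT and 143, 121 and 144 in 1KO+1CI, a smaller difference of no single direction over days.

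The other 3 loci called in 1KO+1CI against WT were Mir7238, Mir1893 and Mir6905, whose calls were kept in 1, 1 and 2 of 9 fits with 1 library left out. Mir7238, in the 5′ UTR of Ankrd10, read 32.1, 30.2 and 21.4 FPKM in WT, 16.1, 15.8 and 23.1 in 1KO, and 8.93, 14.5 and 14.1 in 1KO+1CI, and fell by 1.11 ± 0.23 against WT (log2 scale, limma adjusted p = 0.041). Ankrd10 itself read 27.8, 27.9 and 31.7 FPKM in WT, between 15.3 and 17.5 in 1KO, and between 14.8 and 15.2 in 1KO+1CI, so the host was lower in both mutant lines on each day, and the hairpin on each day but for 1KO on day 4. Mir1893, in a coding exon of Epc1 (a subunit of the NuA4 histone acetyltransferase), fell by 0.93 ± 0.20 (limma adjusted p = 0.045). Mir6905, in an intron of the Mediator subunit gene Med23, rose by 1.01 ± 0.22 (limma adjusted p = 0.048) on between 1 and 6 reads per library.

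More loci were called between days than between lines. Relative to day 0, the limma fit called 10 loci higher and 6 lower on day 2, 16 of 122 or 13.1% (15.4% of all genes), and 4 higher and 8 lower on day 4, 12 of 122 or 9.84% (23.6% of all genes). By the 2-fold rule in all 3 lines, Mir363 was the 1 locus higher on day 2 (0.405% of all genes) and none was lower (0.955%). On day 4 none was higher (0.743%) and 3 were lower, Mir1668, Mir7003 and Mir6385 (2.08%). The share of loci called was thus near the background of the whole table on day 2 and under it on day 4. The loci had median differences of 0.05 on day 2 and 0.06 on day 4, against 0.01 on both days for all genes.

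Mir363 had the largest rise on day 2. Expression went from 2.61 FPKM on day 0 to 18.3 on day 2 and 16 on day 4 in WT, from 2.4 to 15.4 and 5.36 in 1KO, and from 5.07 to 22.2 and 8.68 in 1KO+1CI. All 3 day 2 values lay above all 3 day 0 values, and so did the day 4 values. The rise was 2.21 ± 0.28 on the log2 scale on day 2 (limma adjusted p = 0.0037) and 1.27 ± 0.28 on day 4 (limma adjusted p = 0.016). On day 2 the ratio to day 0 was 7.01 (2.49 to 27.2) for WT, while 1KO gave 6.41 (2.4 to 21.5) and 1KO+1CI 4.38 (2.06 to 10.4). Without the 1KO library of day 0 the limma adjusted p on day 4 was 0.053, while the day 2 call stood whichever library was left out.

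Mir92-2, its neighbour on chromosome X with the same seed, was also called higher on day 2, at lower levels. It read 1.61, 5.92 and 2.63 FPKM in WT on days 0, 2 and 4, 0.79, 3.17 and 2.94 in 1KO, and 0.927, 1.57 and 0.549 in 1KO+1CI, from 1 to 13 reads, and rose by 1.01 ± 0.26 on day 2 (limma adjusted p = 0.039). Its day 4 value was above day 0 in WT and 1KO but below it in 1KO+1CI, and was not called. Pooled, the reads of Mir363 and Mir92-2 went from 7 to 46 and 30 in WT, from 7 to 30 and 15 in 1KO, and from 11 to 38 and 14 in 1KO+1CI. The pooled ratio of 1KO to WT was 0.738 (0.221 to 2.46) on day 0, 0.756 (0.461 to 1.22) on day 2 and 0.465 (0.232 to 0.891) on day 4. The nearest annotated gene is Kis2, a noncoding transcript 796 bases from Mir363, with a mean of 0.311 FPKM. Mir92-1 on chromosome 14, which holds the same mature sequence as Mir92-2 in the Mir17hg transcript, had 2, 4 and 2 reads in WT, 1, 3 and 4 in 1KO and 7, 4 and 2 in 1KO+1CI, with no shared order over days.

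The Mir290 cluster, which encodes the main ESC microRNAs, was read at low levels. Its members Mir291a, Mir291b, Mir292, Mir293, Mir294 and Mir295 lie opposite a 3′ UTR that GENCODE assigns to Nlrp12. Nlrp12 is not a gene of the table, and with no strand setting known the strand of the reads is not known either. Mir290b overlaps Mir290a on the other strand and was left out of the pooled reads. The 7 remaining loci together had 30, 136 and 53 reads in WT on days 0, 2 and 4, 68, 70 and 48 in 1KO, and 96, 102 and 58 in 1KO+1CI. Per 1000000 counted reads this is 1.45 (0.976 to 2.07), 5.57 (4.67 to 6.59) and 2.51 (1.88 to 3.29) in WT.

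WT started lowest of the 3 lines on day 0 and was highest on day 2. The ratio of day 2 to day 0 was 3.85 (2.58 to 5.92) for WT, while 1KO gave 1.37 (0.97 to 1.95) and 1KO+1CI 1.20 (0.897 to 1.6). The ratio of day 4 to day 2 lay under 1 in all lines, at 0.451 (0.322 to 0.624) for WT, 0.636 (0.431 to 0.932) for 1KO and 0.598 (0.426 to 0.834) for 1KO+1CI. Against WT, 1KO stood at 1.67 (1.07 to 2.66) on day 0, 0.597 (0.441 to 0.802) on day 2 and 0.842 (0.557 to 1.27) on day 4. 1KO+1CI exceeded 1KO on days 0 and 2, at 1.65 (1.2 to 2.29) and 1.44 (1.05 to 1.98), and on day 4 the interval included 1 (1.36, 0.909 to 2.03). These intervals hold counting error alone, and whether the lines differ beyond the spread between cultures could not be tested.

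**Figure D4:**
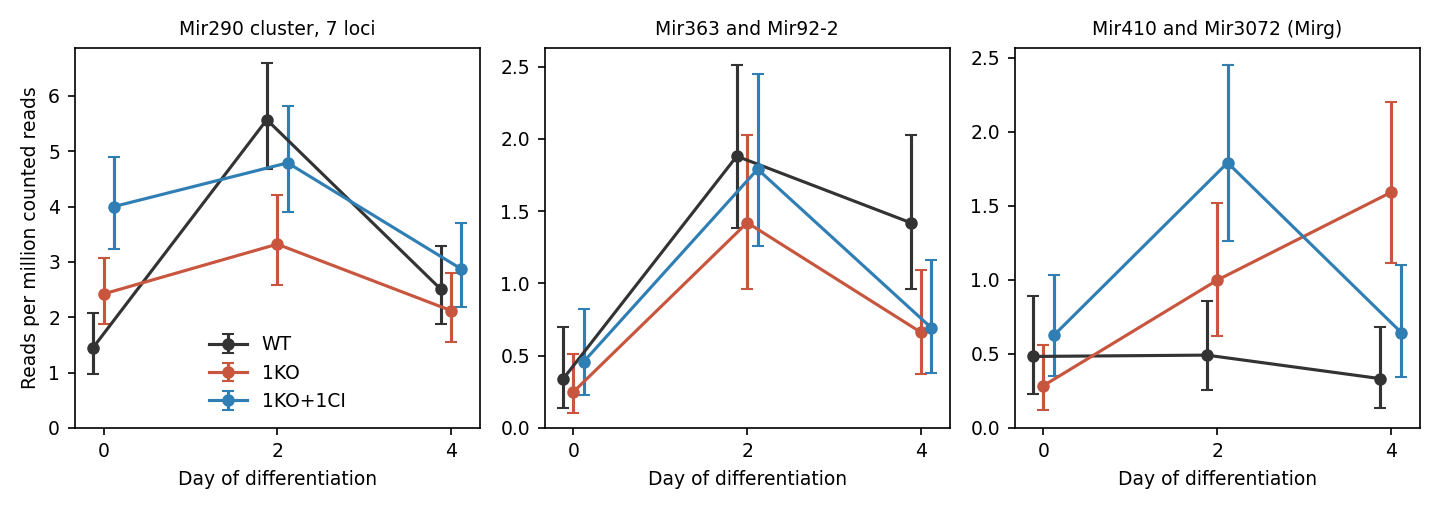
Pooled reads per 1000000 counted reads (vertical axis) on days 0, 2 and 4 (horizontal axis) for the 7 pooled loci of the Mir290 cluster, for Mir363 with Mir92-2, and for Mir410 with Mir3072 in Mirg, with 1 point per library, lines joining the days of WT, 1KO and 1KO+1CI, and bars for the exact 95% Poisson interval. The Mir290 cluster peaks on day 2 in WT at 5.57, and Mir363 with Mir92-2 is higher on day 2 than on day 0 in all 3 lines.

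Single members of the Mir290 cluster were thinly read, and 2 of them were called. Mir291b, the deepest, read 2.47, 23.1 and 9.73 FPKM in WT, 9.58, 14 and 10.7 in 1KO, and 16, 19.9 and 6.34 in 1KO+1CI. Its WT value on day 0 came from 4 reads and that on day 2 from 44. Mir292 read 1.19, 5.05 and 0.585 FPKM in WT, 1.32, 3.52 and 0.544 in 1KO, and 2.57, 6.96 and 1.22 in 1KO+1CI, from 1 to 12 reads. It peaked on day 2 in each line, with a rise of 1.19 ± 0.14 on day 2 (limma adjusted p = 0.003) and a fall of 0.58 ± 0.14 on day 4 (limma adjusted p = 0.024), although no line's ratio to day 0 had a counting interval that left out 1. Mir295 rose by 1.21 ± 0.34 on day 2 (limma adjusted p = 0.048), with 4.25, 11.4 and 5.58 FPKM in WT, 2.62, 11.9 and 1.3 in 1KO, and 4.91, 7.6 and 5.09 in 1KO+1CI. Mir293 ran from 3.0 to 14 FPKM and Mir294 from 3.49 to 13.7 with no order shared by the lines. Mir290a had 1 to 7 reads, Mir290b 1 to 4 and Mir291a 3 to 7.

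Besides Mir363, Mir92-2, Mir292 and Mir295, 6 loci rose on day 2. Mir5116 in the 3′ UTR of Mmgt1, a subunit of the membrane protein insertase of the endoplasmic reticulum, rose by 1.32 ± 0.32 (limma adjusted p = 0.031), with 2.69 to 3.89 FPKM on day 0 and 7.26 to 13.0 on day 2. Mir130c, opposite Kdelc2, rose by 1.11 ± 0.29 (limma adjusted p = 0.038), from 4.12 to 6.55 FPKM on day 0 to between 10.6 and 14.5. Mir1896, in the noncoding transcript 4930470G03Rik, rose by 0.85 ± 0.24 on day 2 and by 0.88 ± 0.24 on day 4 (limma adjusted p = 0.047 and 0.032), and its host rose by 0.71 and 0.60 (limma adjusted p = 0.014 and 0.018). Mir12188 in Clcn7, a lysosomal chloride exchanger, rose by 0.60 ± 0.16 (limma adjusted p = 0.042) and Clcn7 by 0.66 ± 0.16 (limma adjusted p = 0.030). Mir7082 and Mir7654 rose by 0.49 ± 0.13 and 0.45 ± 0.10. Of the 16 calls on day 2 in either direction, 3 were kept with any 1 library left out (Mir292, Mir3076 and Mir363), and the other 13 were each lost without some library.

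The 6 loci that fell on day 2 lay in genes of different kinds. Mir3076 fell by 1.01 ± 0.11 (limma adjusted p = 0.0021), from 32.7 to 16 FPKM in WT, from 30.1 to 15.3 FPKM for 1KO and from 14.8 to 6.37 FPKM for 1KO+1CI, and was back at 34.6, 34.4 and 20.1 on day 4. Its host Tkt also dipped in each line on day 2, to 105, 135 and 121 FPKM. Mir6935 in a noncoding transcript of the actin gene Actg1 fell by 1.67 ± 0.43 (limma adjusted p = 0.037), with 14.5, 16.9 and 30.4 FPKM on day 0 and 5.85, 9.04 and 2.98 on day 2 in WT, 1KO and 1KO+1CI. Mir5046 in Rps6ka4, a kinase gene, fell by 1.15 ± 0.31 (limma adjusted p = 0.044) and its host by 0.66 ± 0.14 (limma adjusted p = 0.023). Mir6910, in an intron of the splicing repressor gene Ptbp1, fell by 0.95 ± 0.24 (limma adjusted p = 0.037), while Ptbp1 differed by 0.13 ± 0.10 (limma adjusted p = 0.41). Mir703 fell by 0.84 ± 0.22 and Mir5121 by 0.57 ± 0.13.

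On day 4 the deepest fall was that of Mir7003. Its hairpin ends on the last base of an intron of Mybl2, at chr2:163064501-163068155, which is 3655 bases long. Mybl2 encodes the cell cycle transcription factor B-MYB. Mir7003 read 16.3, 9.45 and 5.11 FPKM in WT on days 0, 2 and 4, 11.5, 10.2 and 2.71 in 1KO, and 18.6, 8.67 and 0.76 in 1KO+1CI, so that all 3 day 4 values lay below all other values. The fall was 2.24 ± 0.36 (limma adjusted p = 0.0045), and the call was kept with any 1 library left out. Mybl2 read 156, 186 and 39.2 FPKM in WT, 168, 148 and 32.7 in 1KO, and 173, 133 and 30.3 in 1KO+1CI. Host and hairpin fell by nearly the same amount, 2.26 for Mybl2 on the log2 scale, and had a Pearson r of 0.90 over the 9 libraries.

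Mir1668 and Mir6385 were the other loci at least 2-fold lower on day 4 in every line. Mir1668 read 12.3, 13.9 and 1.34 FPKM in WT, 8.05, 1.79 and 2.08 in 1KO, and 7.87, 4.43 and 1.86 in 1KO+1CI. Day 4 was below day 0 in each line, and in 1KO day 2 was already as low. The fall was 1.90 ± 0.44 (limma adjusted p = 0.019, up to 0.085 with 1 library left out, lost without the day 0 library of 1KO or either 1KO+1CI library of day 0 or day 4), and Adgre5 fell by 1.84. Mir6385, opposite the 3′ UTR of Pml, the gene of the scaffold protein of nuclear bodies, had 6, 7 and 6 reads on day 0 in WT, 1KO and 1KO+1CI, 8 in each on day 2, and 1 in each on day 4. This is the most even pattern among the loci named, at a fall of 1.28 ± 0.13 (limma adjusted p = 0.00084), but the counting interval of each line's ratio included 1 (0.00356 to 1.35 in WT). Pml read 39.4, 61.9 and 31.6 FPKM in WT, 47.8, 67.4 and 22.6 in 1KO, and 52.9, 69.1 and 25.6 in 1KO+1CI, the same order of days, and its difference on day 4 was −0.79.

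**Figure D5:**
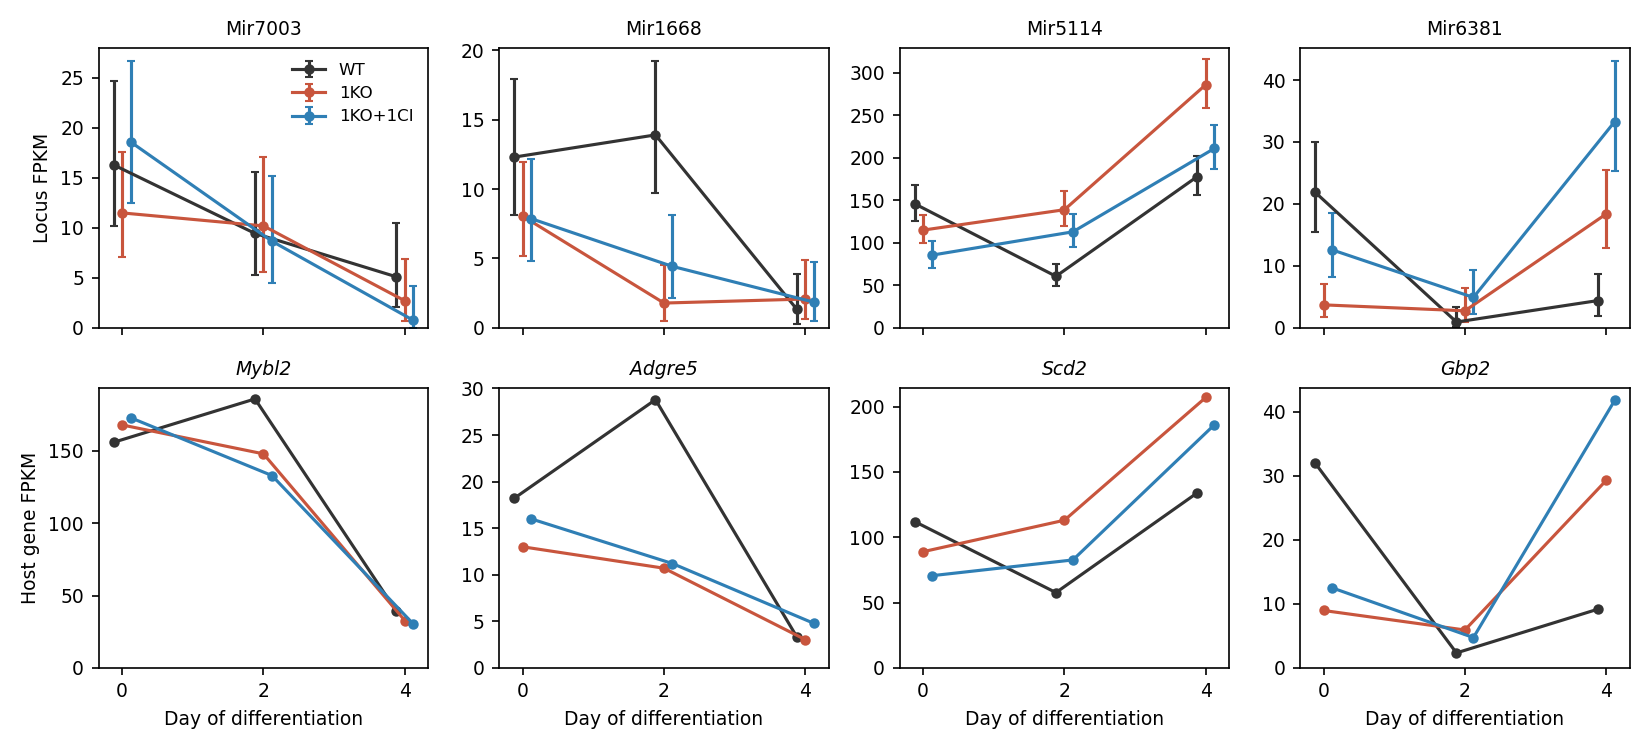
FPKM (vertical axes, separate scales) on days 0, 2 and 4 (horizontal axis) for Mir7003, Mir1668, Mir5114 and Mir6381 (top) and for their host genes Mybl2, Adgre5, Scd2 and Gbp2 (bottom), with 1 point per library, lines joining the days of WT, 1KO and 1KO+1CI, and bars for the 95% Poisson interval of the reads of a locus. The Pearson r of locus and host over the 9 libraries lies between 0.89 and 0.98.

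The remaining loci called on day 4 changed by less, and each of these calls was lost without some library. Mir5114 read 146, 60.7 and 178 FPKM in WT on days 0, 2 and 4, 115, 139 and 286 in 1KO, and 85.5, 113 and 211 in 1KO+1CI, with day 4 highest in each line and day 2 lowest in WT alone. It rose by 0.96 ± 0.28 (limma adjusted p = 0.041) and Scd2 by 0.95 ± 0.24 (limma adjusted p = 0.025). Mir686 rose by 0.39 ± 0.12, at the edge of the threshold. Of the loci that fell, Mir6904 in Parp1, the poly(ADP-ribose) polymerase, did so by 0.66 ± 0.19 (limma adjusted p = 0.042) while Parp1 fell by 0.70 ± 0.09 (limma adjusted p = 0.0022). Mir702 fell by 0.71 ± 0.17 (limma adjusted p = 0.024) and its host Plod3 differed by −0.16 ± 0.10 (limma adjusted p = 0.28). Mir6357, opposite Poli, fell by 0.63 ± 0.13 (limma adjusted p = 0.012) and was lost without 1 library, the 1KO+1CI one of day 0. Mir705 in Rab11fip5 fell by 0.92 ± 0.24 (limma adjusted p = 0.030). With each of the 9 libraries left out in turn, the call was kept 5 times for Mir705 and Mir1896, 4 times for Mir702 and Mir292, 3 times for Mir5114 and Mir6904, and 1 time for Mir686.

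The loci of the imprinted region on chromosome 12 were examined together, because Meg3 and Mirg are silenced on the paternal chromosome where DNA methylation marks that allele. Mir410 read 2.41, 4.61 and 1.19 FPKM in WT on days 0, 2 and 4, 1.78, 10.1 and 13.2 in 1KO, and 5.73, 15.9 and 5.56 in 1KO+1CI. On day 4 it had 2 reads in WT and 24 in 1KO, a ratio of 11.2 (2.77 to 97.4). On day 0 both lines had 4 reads. Over the 3 days its difference between 1KO and WT was 1.13 ± 0.48 (limma adjusted p = 0.32), which did not pass. The pooled reads of Mir410 and Mir3072 were 10, 12 and 7 in WT, 8, 21 and 36 in 1KO, and 15, 38 and 13 in 1KO+1CI, and on day 4 1KO stood at 4.78 times WT (2.1 to 12.7).

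Their host Mirg is read much more deeply. It was at 5.79, 9.29 and 12 FPKM in WT, 12.8, 19.8 and 26.2 in 1KO, and 13.5, 27.5 and 20.6 in 1KO+1CI, above WT in both mutant lines on each day. It was higher by 1.03 ± 0.16 in 1KO (limma adjusted p = 0.024) and by 1.10 ± 0.16 in 1KO+1CI (limma adjusted p = 0.014) than in WT. Whether these calls stand with a library left out was not examined. Mir1906-1 in Meg3 did not show this order on day 0. It read 59.2, 35.8 and 42.0 FPKM in WT, 38.3, 82.9 and 87.0 in 1KO, and 61.7, 89.2 and 68.2 in 1KO+1CI, while Meg3 read 24.7, 21.9 and 23.9, 18.6, 36.7 and 47.8, and 27.1, 53.0 and 41.8. The difference between 1KO and WT was not called for Meg3 (0.43 ± 0.25, limma adjusted p = 0.47), and its sign changed between days.

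The sign of the host's difference was mostly that of the locus, while its size was seldom 2-fold. Among the single-day differences of at least 2-fold whose counting interval left out 1, the host was listed for 30 of 40 in 1KO against WT and had a difference of the same sign in 24, of which 4 were themselves at least 2-fold. For 1KO+1CI against 1KO this held for 17 of 20, with 1 at least 2-fold. For the later days against day 0 it held for 60 of 69, with 19 at least 2-fold. Most of these loci overlap the gene they are set beside, so the values can share reads.

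The genes that process microRNAs gave no call between the lines and some between days. Of 29 such genes looked for, 27 were listed, and the limma fit called none of them in 1KO against WT, 1KO+1CI against 1KO or 1KO+1CI against WT, where 1.86%, 0.00663% and 3.93% of all genes were called. The fit called 2 of the 27 on day 2 (15.4% of all genes) and 6 on day 4 (23.6%). None differed by 2-fold between lines on any day. With the day, Ddx17, a helicase of the DROSHA complex, rose by 0.53 ± 0.09 (limma adjusted p = 0.010) and Tnrc6a, a silencing partner of Argonaute, by 0.46 ± 0.12 (limma adjusted p = 0.041) on day 2. On day 4 Lin28a and Lin28b, which block let-7 maturation, rose by 0.38 ± 0.10 and 0.61 ± 0.14 (limma adjusted p = 0.027 and 0.020). Dgcr8 rose by 0.44 ± 0.13 and Prkra, a partner of DICER1, by 0.58 ± 0.18 (limma adjusted p = 0.046 and 0.047). Drosha fell by 0.37 ± 0.11 (limma adjusted p = 0.048) and Trim71, itself a let-7 target, by 0.49 ± 0.10 (limma adjusted p = 0.012). Dgcr8 read 14.6, 24.2 and 25.7 FPKM in WT on days 0, 2 and 4, and 21.8 to 29.5 FPKM over the mutant libraries.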

How the data were processed

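The authors made poly(A)-enriched RNA libraries with oligo(dT) and random hexamers, and deposited FPKM per gene. Per the labels they used Trim Galore, HISAT2 on mm10, SAMtools and HOMER. Not given in the sources used here are tool versions, the annotation, whether counting was stranded, and how multiply aligned reads were treated. The table of repeats was not used. Of 15095 gene entries, 21 that name no gene were dropped (at most 0.117% of a library's summed FPKM).

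FPKM was taken as deposited and compared as log2(FPKM + 1), which understates changes of low loci. Whole reads were recovered from FPKM steps, depth and hairpin length less 1 base, which made 99.36% of member values whole within 0.1 read, against 86.7% with the full length. No count test was run on them. Positions came from RefSeq (GRCm38.p6) and GENCODE M21, the same build as mm10. Ratios carry exact 95% binomial intervals, and pooled reads exact 95% Poisson intervals.

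The additive fit of line and day used limma 3.58.1 in R 4.3.3 (eBayes with trend) on all 15074 genes with Benjamini-Hochberg adjustment over all of them and a threshold of 0.05. With 1 library per condition its error is the remainder between lines and days. A steady difference is at least 1 on the log2 scale, of 1 sign, on all 3 days or in all 3 lines. Fits of 1KO+1CI against WT and of day 2 against day 0 were added after seeing the data. Comparisons that share a library are not independent of each other. The fit and the depth recovery were tested on simulated data.

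Named loci are all that passed the steady rule or the fit (at most 10 per comparison and direction), the 10 highest by mean FPKM, listed members of the Mir290, Mir17 and Mir106a clusters, and the 5 largest single-day differences that were not steady. Loci of the imprinted region stand with them. Members and lists were chosen with earlier results of these data known. Alternatives were a pseudocount of 0.1, a minimum mean of 1 FPKM, a common sum (TPM), median-ratio scaling, eBayes without trend, hairpins that overlap no exon, and leaving out each library. Other software was scipy 1.17.1, pandas 2.3.3 and numpy 2.4.6 under Python 3.11.15, and matplotlib 3.10.9 for the plots.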

Additional observations from a re-analysis of the deposited data

Results flagged for a closer look

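The following loci moved in opposite directions on different days, with counting intervals that left out 1 each time. The differences between days were not tested, since each condition has 1 library. The ratio of 1KO to WT at Mir1906-1 was 0.646 (0.477 to 0.874) on day 0, 2.32 (1.72 to 3.14) on day 2 and 2.07 (1.55 to 2.79) on day 4, and its near copy Mir1906-2 gave 0.645, 2.3 and 2.02, which is not a second observation. At Mir5114 the ratio of 1KO to WT was 0.786 on day 0, 2.29 on day 2 and 1.61 on day 4. At Mir6381 it was 0.17 on day 0 and 4.18 on day 4. At Mir686 it was 1.26 on day 0, 0.853 on day 2 and 0.883 on day 4. The pooled Mir290 cluster stood at 1.67 on day 0 and 0.597 on day 2. In 1KO+1CI against 1KO, Mir719 stood at 1.49 on day 0 and 0.72 on day 4, and the pooled Mirg loci at 1.79 on day 2 and 0.405 on day 4.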

How the results depend on the processing

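No paired analysis was possible because each condition has 1 library and the labels carry no replicate numbers. Of 106 counts recomputed, 64 stayed within 1.5 times the reported count. Of 102 values recomputed for named loci with a pseudocount of 0.1, median-ratio scaling or a common sum, none changed direction and 97 stayed on their side of the threshold. The 5 that did not were Mir7654 in 1KO against WT (limma adjusted p = 0.052 with median-ratio scaling, 0.061 with a common sum), Mir7238 (0.052 with a common sum), Mir295 (0.056 with a pseudocount of 0.1) and Mir686 (0.056 with median-ratio scaling). With the minimum mean and eBayes without trend also counted, the limma adjusted p reached 0.052 for Mir1896 on day 2. On day 4 it reached 0.054 for Mir5114, 0.056 for Mir6904 and 0.071 for Mir686. The 2 loci called in 1KO against WT became 1 with median-ratio scaling, with a common sum or without the trend in eBayes. Counting only the 23 loci that overlap no exon, the fit called 0 in 1KO against WT, 1 in 1KO+1CI against WT, 4 on day 2 and 2 on day 4, and the steady rule kept 1 on day 4, since fewer loci enter. With a pseudocount of 0.1 the steady rule gave 1 in 1KO against WT (Mir6516), 2 in 1KO+1CI against WT (Mir410 and Mir6905) and 2 on day 2 (Mir292 and Mir363). Median-ratio scaling gave 1 in 1KO+1CI against WT (Mir410) and a common sum gave 2 on day 2 (Mir292 and Mir363). Requiring that the counting interval leave out 1 cut the single-day counts to 13 on days 0 and 4 in 1KO against WT, and to 10, 5 and 12 in 1KO+1CI against 1KO, by its own construction. With 1 library left out in turn, the fit called 0 to 2 loci in 1KO against WT, 0 to 0 in 1KO+1CI against 1KO, 1 to 6 in 1KO+1CI against WT, 4 to 20 on day 2 and 3 to 18 on day 4. Over all genes the fits with 1 library left out called 7 to 356 in 1KO against WT, where the full fit called 281. For day 4 they called 1366 to 4127, where the full fit called 3553. Calls of host and processing genes were not followed through these fits. The cause of these changes was not tested where none is given. Mir3076, Mir292 and Mir363 on day 2, Mir7003 and Mir6385 on day 4, and Mir3076 in 1KO+1CI against WT were called in all 9 of these fits. Depth limits most loci, since 95 of 122 have under 10 reads in some library.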
